A study of Mus musculus with 32 samples.

Results

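Cytosolic ribosomal protein genes encode the proteins of the large (Rpl) and small (Rps) subunit of the cytosolic ribosome. The set analysed here holds every gene column whose name starts with Rpl or Rps and a digit, plus Rplp0, Rplp1, Rplp2 and Rpsa, without the S6 kinases (Rps6k) and without columns named as pseudogenes (-ps). This gave 88 of the 24421 genes in the tables, 53 named Rpl and 35 named Rps. The rule used names only and no measured value. Among the 88, Rps19bp1 encodes a binding partner of Rps19 and is not a ribosomal protein. Rps4l is annotated as a transcribed pseudogene, as is Rpl37rt by GENCODE, though RefSeq lists Rpl37rt as protein-coding. The product of Rpl7l1 works in assembly of the large subunit. Some proteins of the ribosome carry other names, among them Fau and Gnb2l1 (also called Rack1), which are described beside the set.

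Each ribosome holds 1 copy of nearly every one of these proteins, so cells make them in near-matched amounts, and their messages are among the most abundant in growing cells. Many of these messages start with a run of pyrimidines, the TOP motif, through which the mTORC1 kinase sets how strongly they are translated. A few members have a diverged extra copy elsewhere in the genome. Some such copies are known from the testis, where the X chromosome is silenced during meiosis and an autosomal copy stands in for an X-linked one.

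The measurements came from 32 droplet libraries of single mouse cells, 2 per group (A and B), in 16 groups. Mouse embryonic fibroblasts (MEFs) were sampled untreated, and after doxycycline (2 ug/mL) on a layer of irradiated MEF feeders, either in serum-containing stem cell medium with LIF alone (called FBS; days 3, 6, 9 and 12) or in the same medium plus A2S (days 2, 4 and 6). A2S joins ascorbic acid (50 ug/mL), 2i and SGC0946 (5 uM), an inhibitor of the histone methyltransferase DOT1L. The 2i pair, CHIR-99021 against GSK3 and PD-0325901 against MEK, was added 12 h after the others. The media A2 (no SGC0946), S2 (no ascorbic acid) and AS (no 2i) were sampled at days 4 and 6. V6.5 embryonic stem cells (ESCs) were sampled without and with A2S (labelled day 2). All groups shared the serum-containing base medium, and the labels name no strain or allele of the MEFs and no drivers of the doxycycline-induced factors.

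The printed sequences belong to 2 pairs of genes on which the largest single-gene differences turn, an X-linked gene and its autosomal copy in each. They are the bases directly before the annotated gene (RefSeq, build GRCm38.p6), read 5′ to 3′ on the gene's strand, with every CG in capitals, since CG sites are where promoters can be methylated.
Rpl10l: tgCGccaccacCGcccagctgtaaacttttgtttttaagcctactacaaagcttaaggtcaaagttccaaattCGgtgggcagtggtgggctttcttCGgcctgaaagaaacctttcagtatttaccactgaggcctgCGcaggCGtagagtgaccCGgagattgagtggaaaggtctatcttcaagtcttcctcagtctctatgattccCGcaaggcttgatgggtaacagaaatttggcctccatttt
Rpl10: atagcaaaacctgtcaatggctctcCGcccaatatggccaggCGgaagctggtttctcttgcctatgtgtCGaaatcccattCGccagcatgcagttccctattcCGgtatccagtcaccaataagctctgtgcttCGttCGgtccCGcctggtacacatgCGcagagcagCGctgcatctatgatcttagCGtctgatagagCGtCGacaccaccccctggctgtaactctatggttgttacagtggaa
Rpl39l: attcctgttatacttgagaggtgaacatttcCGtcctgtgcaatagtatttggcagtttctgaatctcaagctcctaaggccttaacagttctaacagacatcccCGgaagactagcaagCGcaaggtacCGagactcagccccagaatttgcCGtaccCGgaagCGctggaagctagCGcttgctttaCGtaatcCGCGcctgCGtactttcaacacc
Rpl39: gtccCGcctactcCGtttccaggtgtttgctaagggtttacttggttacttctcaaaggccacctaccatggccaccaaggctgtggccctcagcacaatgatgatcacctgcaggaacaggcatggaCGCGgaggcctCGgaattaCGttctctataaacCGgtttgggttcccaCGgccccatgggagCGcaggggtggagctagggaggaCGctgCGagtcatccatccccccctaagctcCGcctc
Rpl10l lies at chr12:66283379-66284401 as a single exon, and its 250 printed bases (chr12:66284402-66284651, minus strand) hold 8 CG. The 250 bases before Rpl10 (chrX:74270566-74270815, plus strand) hold 13. The 219 bases before Rpl39l (chr16:10169978-10170196, plus strand) and the 250 before Rpl39 (chrX:37085223-37085472, minus strand) hold 12 each. Over the 67 members with a promoter entry the median was 16 CG in 250 bases, against 6 over 27025 promoters, so all 4 printed stretches hold fewer than the median member, Rpl39l in a shorter stretch. The transcripts of Rpl10 and Rpl10l were 84.34% identical over 664 aligned bases, and those of Rpl39 and Rpl39l 84.62% over 182.

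After 684 of 8334 barcodes on the authors' feeder list were dropped, 7650 cells remained, 138 to 431 per library, with 1727490 to 8848775 UMIs per library and a median of 5240 to 23194.5 UMIs per cell. UMIs are unique molecular identifiers, each counting 1 captured transcript at its 3′ end. Among kept barcodes, 28 occurred in more than 1 library. The defining markers followed the labels: the 13 pluripotency markers summed to 0.848 and 2.40 CPM in MEFs (CPM is a gene's UMI count relative to the library's total, scaled with TMM factors) and to 6377 and 6338 in ESCs, and the 10 fibroblast markers to 13750 and 12693 in MEFs and 28.2 and 31.8 in ESCs. The 8 macrophage and blood markers summed to 10.01 to 358 CPM. All levels below come from counts summed over the cells of a library, so fewer cells of a type and less RNA per cell cannot be told apart. Nothing in the labels ties libraries A and B to different cultures, and the spread behind each p-value may therefore be technical.

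Ribosomal protein messages took 8.05 ± 0.123% of all UMIs in MEFs (SD, n = 2 here and below), the lowest mean of the 16 groups, and up to 2.12-fold that in day 6 reprogramming cultures. In serum the share was 10.7 ± 0.218% at day 3, 14.0 ± 0.192% at day 6, 16.4 ± 0.361% at day 9 and 13.8 ± 0.0492% at day 12. In A2S it was 8.75 ± 0.254% at day 2, 12.9 ± 0.428% at day 4 and 15.8 ± 0.897% at day 6. In both courses every library of the later time lay above every library of the earlier one up to day 9 in serum and day 6 in A2S. The serum libraries of day 12 (13.8% and 13.8%) lay below those of day 9 and next to those of day 6 (13.8% and 14.1%).

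The 3 media that lack a component of A2S separated into 2 levels. At day 6 the share was 16.4 ± 0.00649% in A2 and 17.0 ± 0.314% in S2, the highest mean of all groups. In AS, the medium without 2i, it was 12.6 ± 0.0269% at day 6 (libraries at 12.6% and 12.6%), below both A2S libraries (15.1% and 16.4%). AS was also the lowest of the 3 at day 4: 14.2 ± 0.588% in A2, 13.6 ± 0.185% in S2 and 10.3 ± 0.650% in AS. At the upper end the order is not resolved: both A2 day 6 libraries and A2S day 6 B lay between the FBS day 9 libraries (16.2% and 16.7%).

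ESCs stood above MEFs and below most day 6 and later cultures: 11.4 ± 0.145% without A2S and 12.7 ± 0.442% with it. Libraries of ESC (11.3% and 11.5%) lay below those of ESC A2S (12.4% and 13.0%). All libraries of FBS days 6, 9 and 12, A2S day 6, A2 and S2 lay above the ESC A2S libraries, while both AS day 6 libraries lay between them. Between replicates the largest gap was 1.27 percentage points, in A2S day 6. With 2 libraries against 2 the smallest two-sided p of an exact permutation test is 0.333, so the share was not tested.

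Depth moved with the share. MEF and A2S day 2 libraries had the deepest cells (medians from 19102 to 23194.5 UMIs) and the lowest shares, and FBS day 9 the shallowest (5240 and 5831). Within each library, cells below its median UMI count had a higher share than the cells above it in 32 of 32 libraries, by 0.302 to 2.69 percentage points. Restricted to cells of 8000 to 16000 UMIs, 21 to 209 cells per library, the share was 8.58 ± 0.650% in MEFs, 10.9 ± 1.28% at A2S day 2, 16.04 ± 0.769% at A2S day 6, 17.4 ± 0.974% at S2 day 6, 13.5 ± 0.183% at AS day 6, 16.2 ± 0.849% at FBS day 9 and 11.6 ± 0.145% in ESCs. The ratio of S2 day 6 to MEF was 2.03 in that window and that of A2S day 2 to MEF 1.28, against 1.09 over all cells. Cells on the feeder list, in the 10 libraries with 20 or more of them, had a share of 6.31% to 7.94%.

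**Figure D1:**
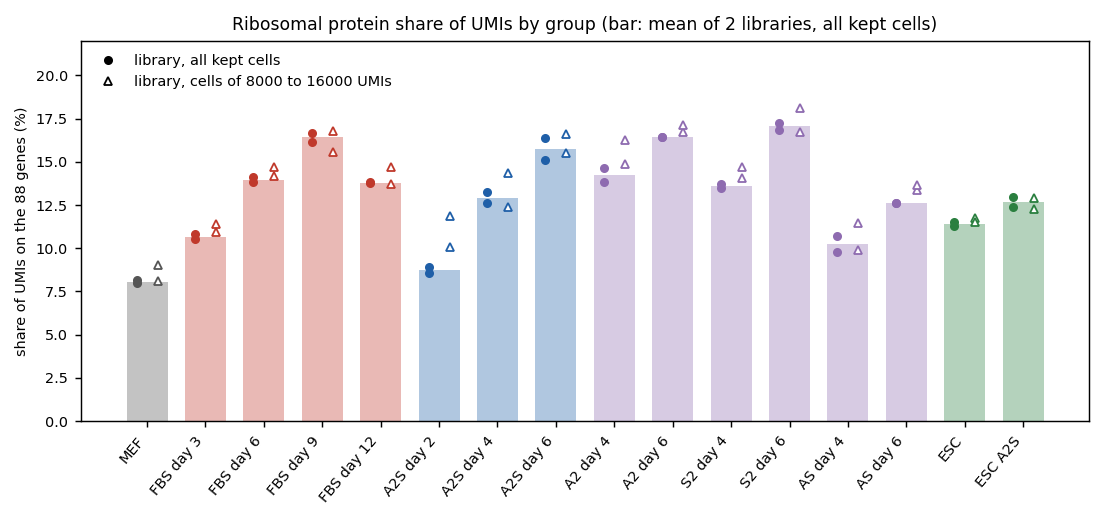
Share of all UMIs that fall on the 88 genes, in percent, for each of 16 groups. Bars are means of 2 libraries, filled circles are libraries over all kept cells and open triangles the same libraries over cells of 8000 to 16000 UMIs (grey, MEF; red, serum; blue, A2S; purple, media lacking a component; green, ESCs). MEF sits at 8.05% and S2 day 6 at 17.0%.

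Of the 88 genes 86 had a UMI, 82 reached a mean of 10 CPM, 78 reached 100 and 53 reached 1000. Together they held 13185486 UMIs. Those with the most UMIs included Rplp1, Rps12, Rplp0 and Rpl4, and the first 20 took 49.3% of all UMIs of the set. Rplp1 and Rplp0 form the stalk of the large subunit, which recruits elongation factors. Counts from 3′ ends are not scaled by length, so differences between genes also depend on how well each end was captured and mapped.

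Most members moved together. With TMM factors, 41 of the 82 genes at 10 CPM or more had their highest group mean at FBS day 9, 19 at A2 day 6, 12 at S2 day 6 and 9 in ESC A2S. On the same scale the lowest group mean was A2S day 2 for 62 of the 82 and MEF for 9. By share of all UMIs MEFs lay lower (8.05%, against 8.75% at A2S day 2). S2 day 6 lay higher by share (17.0%, against 16.4% at FBS day 9). The median distance between a gene's lowest and highest group was 1.23 on the log2(CPM + 1) scale, and the middle 50% of genes lay between 1.07 and 1.47.

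**Figure D2:**
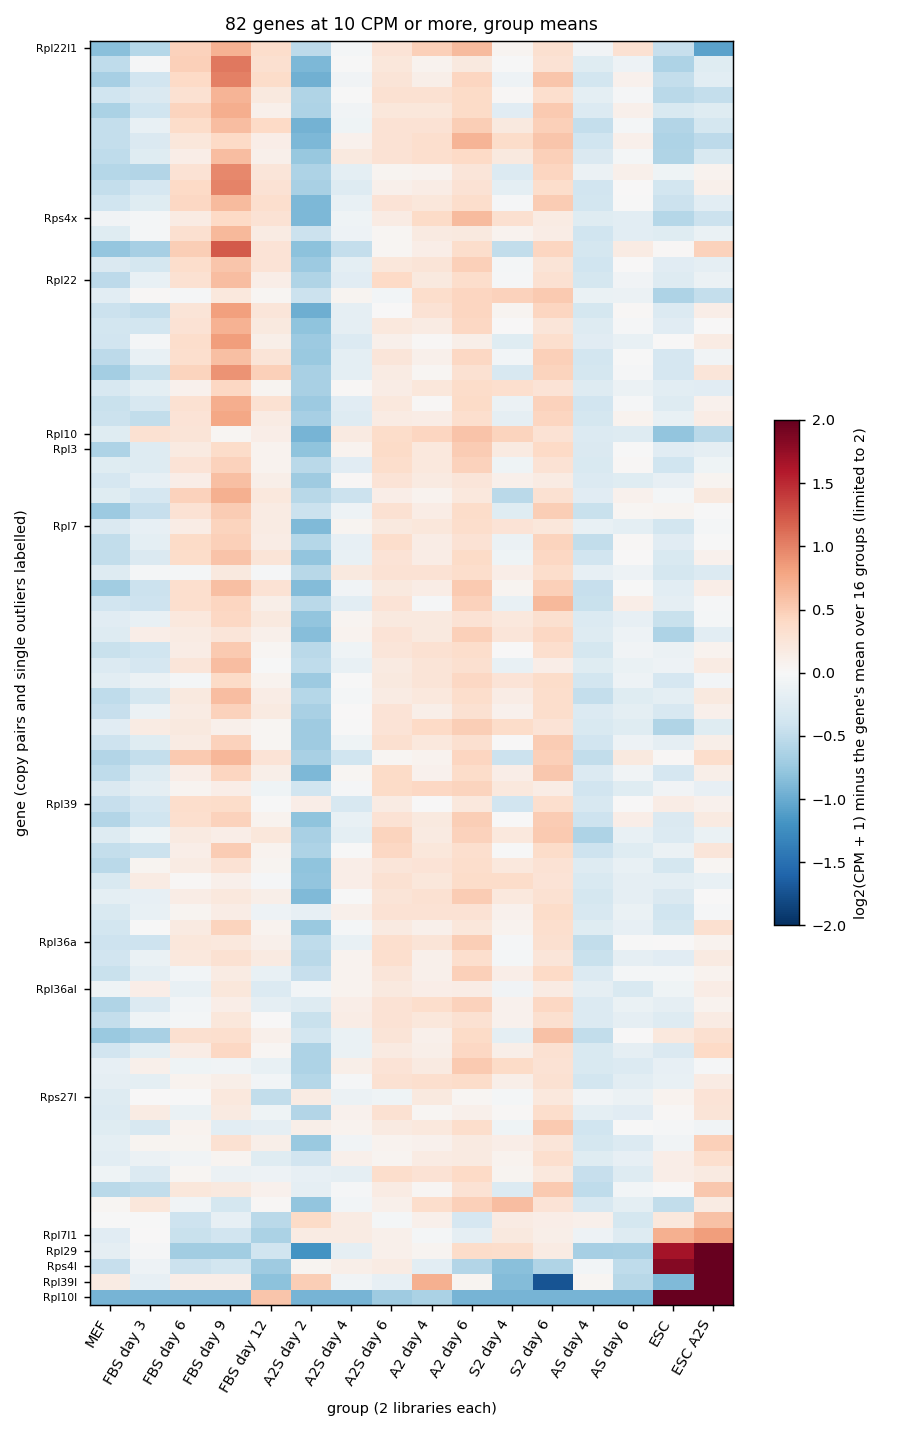
Group means of 82 genes (rows) in 16 groups (columns), as log2(CPM + 1) minus the gene's own mean over groups, limited to 2 in either direction, with the copy pairs and single outliers labelled. Red is above and blue below the gene's mean. With TMM factors nearly every row is blue at A2S day 2 and red at FBS day 9. The last rows, among them Rpl29, Rps4l, Rpl39l and Rpl10l, stand out in ESCs.

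Single outliers were sought by comparing each gene's deviation from its own mean with the median deviation of all members in the same library. A gene was an outlier of a group when both libraries lay more than 1 (log2) away on the same side. This found 13 outliers in 5 genes: Rpl10l, Rpl39l, Rps4l, Rpl29 and Rpl22l1. Of the 13, 8 were in ESC or ESC A2S. A further 4 were Rpl10l in groups where it had no UMI. Those deviations depend both on its own mean, which its ESC levels raise, and on how high the other members were in the group.

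Rpl10l is the autosomal copy of X-linked Rpl10 and is best known from male germ cells. It had no UMI in 24 of the 32 libraries, both MEF libraries among them. ESC libraries held 59 and 62 UMIs (24.8 and 22.9 CPM) and ESC A2S libraries 1027 and 1062 (280 and 297 CPM). FBS day 12 held 1 and 6 UMIs, A2S day 6 0 and 1, and A2 day 4 2 and 0. Among the reprogramming cultures FBS day 12 was therefore the one group with UMIs in both libraries, and Rpl10l UMIs otherwise lay almost wholly in ESCs. Set against a floor of 3 UMIs per MEF library, ESCs were at least 52.5-fold higher and ESC A2S at least 635-fold higher than MEFs. Between the 2 ESC groups the level was 12.1-fold higher with A2S (log2 3.597 ± 0.201 SE, n = 2 and 2, adjusted p = 6.5e-12 by edgeR's quasi-likelihood test with Benjamini-Hochberg adjustment over 13229 genes).

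Rpl10 itself did not follow. Its levels were 526 and 529 CPM in ESCs and 636 and 624 CPM in ESC A2S, a log2 difference of 0.26 ± 0.133 that did not pass (adjusted p = 0.12, edgeR quasi-likelihood). ESC libraries were the lowest for Rpl10 after A2S day 2 (434 and 520 CPM), and A2 day 6 had the highest mean (1328 and 1390 CPM). The 2 ESC groups did not overlap for Rpl10, but the gap was small beside that of its copy.

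Rpl39l, the autosomal copy of X-linked Rpl39, was low in every group but 1. ESC libraries stood at 12.2 and 15.5 CPM, ESC A2S libraries at 304 and 334 CPM, and the other 28 libraries between 6.7 and 57.4 CPM. The ESC A2S level was 22.8-fold the untreated ESC level (means 319 ± 20.98 and 13.9 ± 2.35 CPM; log2 4.51 ± 0.299 SE, adjusted p = 1.2e-13, edgeR quasi-likelihood). Unlike Rpl10l, Rpl39l was present in MEFs (21.7 and 37.7 CPM). Its X-linked counterpart Rpl39 overlapped between the ESC groups (880 and 871 against 768 and 900 CPM; log2 -0.07 ± 0.179, adjusted p = 0.79, edgeR quasi-likelihood). The low point of Rpl39l was S2 day 6 (6.7 and 7.9 CPM), below A2S day 6 (22.4 and 24.5 CPM; log2 -1.69 ± 0.431, adjusted p = 0.0062, edgeR quasi-likelihood), a call that was lost without library A of S2 day 6 and in cells of 8000 to 16000 UMIs.

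Rps4l, on chromosome 6, is annotated as a transcribed pseudogene copy of X-linked Rps4x, and it has no promoter entry. It was at 180 and 196 CPM in ESCs, 347 and 352 CPM in ESC A2S, and 27.4 to 63.5 CPM in the other 28 libraries, without overlap. Its rise with A2S in ESCs was 1.86-fold (log2 0.89 ± 0.124, adjusted p = 5.2e-07, edgeR quasi-likelihood). Rps4x differed by log2 0.14 ± 0.102 in the same comparison (651 and 705 against 731 and 766 CPM), which did not pass (adjusted p = 0.26). Between MEFs and ESCs the pair moved in opposite directions: Rps4l was 4.99-fold higher in ESCs (log2 2.32 ± 0.138, adjusted p = 8.0e-16) and Rps4x 0.705-fold (log2 -0.50 ± 0.101, adjusted p = 5.0e-05, both edgeR quasi-likelihood). With library totals in place of TMM factors the Rps4x call was lost.

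Rpl29, a large subunit protein on chromosome 9, was at 285 and 252 CPM in ESCs and 349 and 329 CPM in ESC A2S, against 26.4 to 130 CPM in the other 28 libraries. Its level is uncertain, since 100% of the 50-base stretches in the last 300 bases of its transcript also occur in transcripts of other genes, 71 in all. For Rpl10l and Rpl39l that share was 0%, for Rps4l 17.5% and for Rpl10 100%. Rpl22l1, a diverged copy of the RNA-binding protein Rpl22, was low in ESC A2S (180 and 206 CPM against 294 and 295 CPM in ESCs; log2 -0.61 ± 0.108, adjusted p = 2.3e-05, edgeR quasi-likelihood), the one member that fell in this comparison. Elsewhere it ranged from 227 CPM in MEF B to 685 CPM in FBS day 9 B. Rpl22 was at 717 and 721 CPM in ESCs and 742 and 849 CPM in ESC A2S (log2 0.15 ± 0.103, adjusted p = 0.26).

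**Figure D3:**
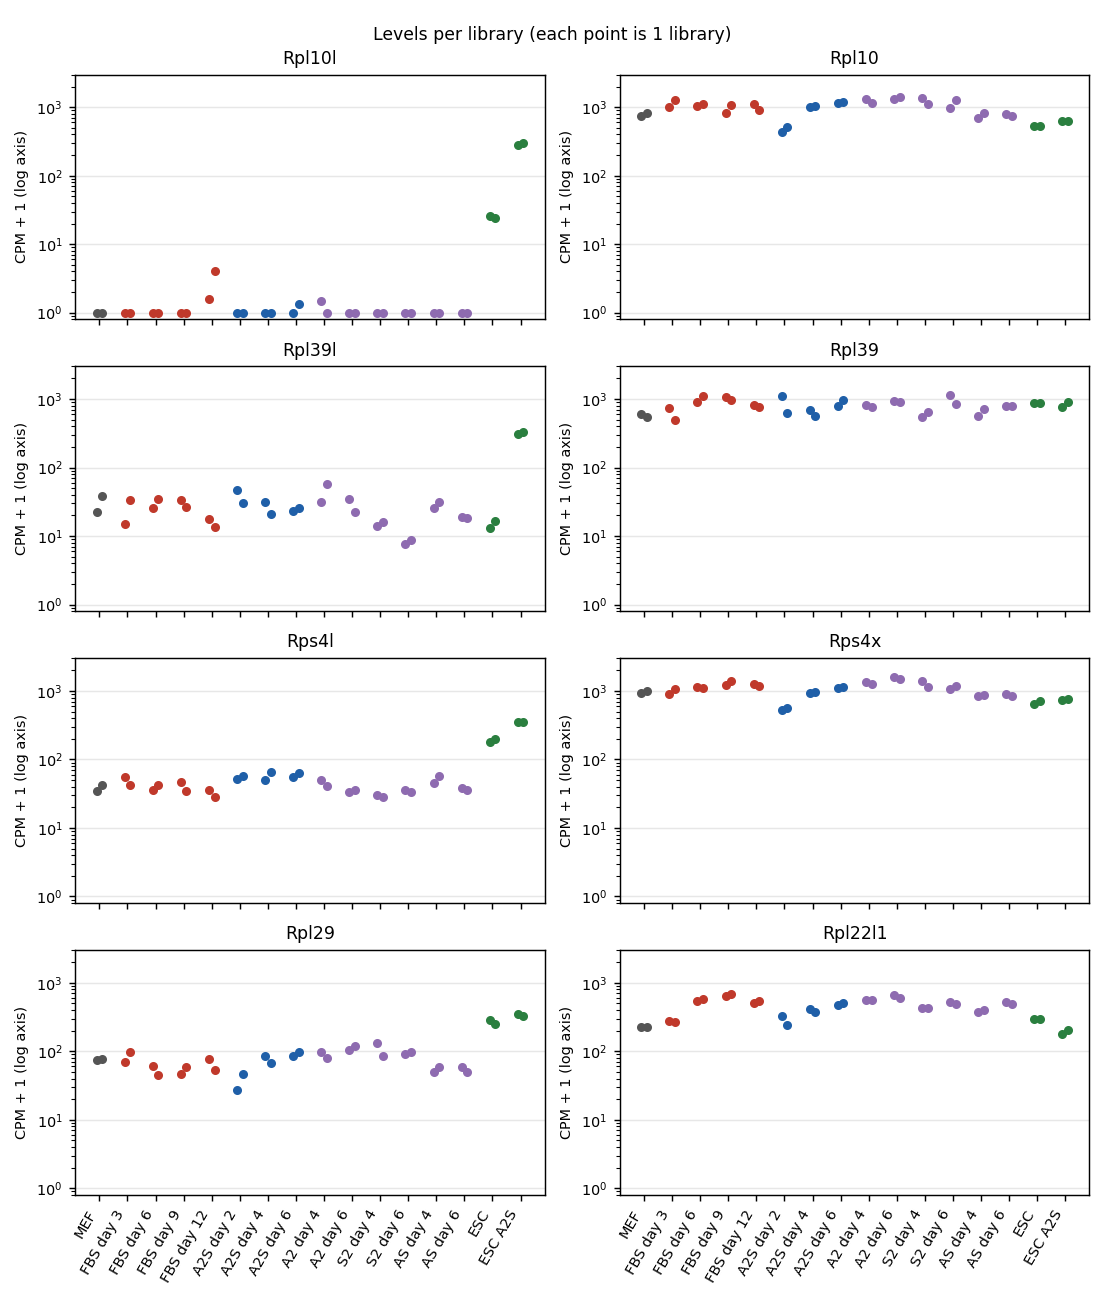
Levels of 8 genes in each of the 32 libraries (points), as CPM + 1 on a log axis, by group, with the colours used for the shares. The copies Rpl10l, Rpl39l and Rps4l (left) reach 280 to 352 CPM in ESC A2S, while Rpl10, Rpl39 and Rps4x (right) stay between 624 and 900 CPM there; Rpl29 is high in both ESC groups and Rpl22l1 low in ESC A2S.

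The tests below were run on all genes, and 84 of the 88 members passed the filter on low counts, Rpl10l only through the 2 ESC groups. Its calls against MEFs, FBS day 3, FBS day 12 and A2S day 6, where it had 0 to 6 UMIs per library, follow from its presence in few groups, and each is 1 of the members counted below. Folds are relative to TMM factors. With library totals instead, the median over all genes moved by more than 0.1 (log2) in 4 comparisons: to 0.32 in ESC against MEF, 0.21 in A2S day 2 against MEF, 0.16 in A2S day 6 against FBS day 6 and 0.15 in FBS day 3 against MEF. Member medians are given beside those of all genes for this reason.

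ESCs against MEFs. Of the 84 members tested, 34 were higher in ESCs and 8 lower at an adjusted p under 0.05 (edgeR quasi-likelihood). Of all 13229 genes, 35.6% were called higher and 36.4% lower, so the count of members higher is near the background. The members' median was log2 0.19, against 0 for all genes. Rps28, a small subunit protein, rose 1.93-fold (487 and 441 CPM in MEFs, 885 and 909 CPM in ESCs; adjusted p = 2.5e-07). Those that fell included Rpl15 (383 and 467 against 292 and 294 CPM; adjusted p = 0.0014) and Rpl10 (736 and 814 against 526 and 529 CPM; adjusted p = 0.00040), and both calls were lost with library totals, that of Rpl15 also without MEF B. With library totals 69 members were higher and 1 lower, and of all calls 60.5% were higher in place of 49.5%. Leaving out ESC A or MEF B lowered the count of members called lower to 5 and 4.

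ESC A2S against ESC. Under A2S, 44 members were higher and 1 lower of 84, where 25.1% of all genes were called higher and 21.5% lower. The median was log2 0.27, against 0.04 over all genes. Beside the copies described above, Rplp1 was among those that rose (log2 0.38 ± 0.0925; 4358 and 4761 against 5632 and 6226 CPM; adjusted p = 0.0011, edgeR quasi-likelihood). Cells on the feeder list made up 14.2% and 10.9% of ESC A2S barcodes and 3.50% and 3.53% of ESC barcodes, and with them kept 20 members were higher. The count was 17 in cells of 8000 to 16000 UMIs, 25 with library totals (43.2% of all calls higher, in place of 53.9%), and 29 without ESC A2S B or without ESC A.

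The serum course. From MEFs to FBS day 3, 26 members were higher and 0 lower (18.2% and 22.5% of all genes), with a median of log2 0.18 against -0.01. At an unadjusted p under 0.05 none was lower either, and DESeq2 gave 23 higher and 0 lower. Rpl7a rose 1.51-fold (1115 and 1106 to 1622 and 1723 CPM; adjusted p = 4.8e-07, edgeR quasi-likelihood). The count fell to 13 without MEF A, 12 in cells of 8000 to 16000 UMIs and 10 with listed cells kept (with 2 lower), and rose to 62 with library totals, where 65.7% of all calls were higher in place of 44.8%. Without FBS day 3 B 1 member was lower.

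From FBS day 3 to day 12, 49 members were higher and 6 lower (22.9% of all genes in each direction), with a median of log2 0.32 against 0. Rps19, which is needed to mature the small subunit RNA, rose 1.91-fold (1635 and 1322 to 2673 and 2984 CPM; adjusted p = 1.5e-07) and Rpl22l1 1.90-fold (278 and 270 to 508 and 532 CPM; adjusted p = 2.0e-08, both edgeR quasi-likelihood). The 6 that fell included Rpl7l1 (161 and 163 to 98.1 and 108 CPM), Rps27l, a copy of Rps27 induced by p53 in other settings (1076 and 1070 to 756 and 768 CPM), and the binding partner Rps19bp1 (64.7 and 72.9 to 47.3 and 46.8 CPM), whose call was lost in both settings named next. Without FBS day 3 B, or in cells of 8000 to 16000 UMIs, 3 were lower. Against ESCs, FBS day 12 had 50 members higher and 7 lower (33.8% and 32.7% of all genes), with a median of log2 0.33 against 0.01. Rps16 was 1.98-fold higher (862 and 801 CPM in ESCs, 1704 and 1597 CPM; adjusted p = 8.2e-10) and Rpl7l1, whose product works in assembly of the large subunit, was 0.389-fold (266 and 265 against 98.1 and 108 CPM; adjusted p = 4.8e-13).

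The A2S course. With TMM factors A2S day 2 was the lowest group for most members, though not by the share of UMIs. Against MEFs, 11 members were higher and 39 lower (22.8% and 26.9% of all genes), with a median of log2 -0.22 against -0.01, while MEFs had the lower share of UMIs and the lowest TMM factors. Among those that fell, Rps4x went from 927 and 998 to 529 and 556 CPM (log2 -0.83 ± 0.101, adjusted p = 3.5e-08) and Rpl15 from 383 and 467 to 202 and 274 CPM (adjusted p = 1.1e-05, both edgeR quasi-likelihood). Rps27l rose from 886 and 892 to 1290 and 1105 CPM (adjusted p = 0.00034). Direction here depended on depth and scaling. In cells of 8000 to 16000 UMIs, only 21 in each A2S day 2 library, 9 members were higher and 2 lower with a median of log2 0.10. The part of the lower cell number in the lost calls was not tested. With library totals 18 were higher and 12 lower with a median of 0.05, where 66.6% of all calls were higher in place of 45.9%. Relative to the median of all genes, the members lay at -0.21 with TMM factors, -0.17 with library totals and 0.10 in the depth window. Without MEF B 20 were lower, and without A2S day 2 A 4 were higher.

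From day 2 to day 6 of A2S came the largest shift of the 12 comparisons: 73 members were higher and 2 lower of 84 (26.2% and 24.1% of all genes), with a median of log2 0.87 against 0.04. Rpl10 rose 2.47-fold (434 and 520 to 1157 and 1202 CPM; adjusted p = 1.2e-09) and Rps3, a small subunit protein at the messenger RNA entry, 2.44-fold (1685 and 1755 to 4122 and 4268 CPM; adjusted p = 2.4e-13, both edgeR quasi-likelihood). The 2 that fell were Rps27l and Rps19bp1, and both calls were lost without A2S day 2 A. The Rps27l call was also lost without A2S day 6 A, with listed cells kept and with library totals, and the Rps19bp1 call without A2S day 6 B and in the depth window. In cells of 8000 to 16000 UMIs 59 were higher with a median of 0.62, and 1 was lower. Leaving out single libraries gave 71 to 74 higher, with 0 lower without A2S day 2 A and 1 without either A2S day 6 library.

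Against ESCs, A2S day 6 had 61 members higher and 4 lower (29.6% and 25.1% of all genes), with a median of log2 0.47 against 0.06. Rpl10 was 2.24-fold higher (adjusted p = 1.2e-08) and Rps9 1.85-fold (1643 and 1582 CPM in ESCs, 2788 and 3181 CPM; adjusted p = 4.6e-11, both edgeR quasi-likelihood). All 4 that were lower are named above: Rpl10l, Rps4l, Rpl29 and Rpl7l1. In cells of 8000 to 16000 UMIs 55 were higher and 4 lower, with a median of 0.47.

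At day 6 the members' counts for A2S against serum were near or under the background. Against FBS day 6, A2S day 6 had 19 members higher and 5 lower (27.4% and 25.4% of all genes), with a median of log2 0.06 against 0.03. Rpl7l1 was higher (119 and 118 against 166 and 180 CPM; adjusted p = 2.2e-05) and Rpl37 lower (1962 and 2356 against 1454 and 1659 CPM; adjusted p = 0.0054, edgeR quasi-likelihood). The Rpl37 call was lost without A2S day 6 A and without FBS day 6 B. Counts depended on single libraries: 7 were higher without A2S day 6 B, where the median was -0.01, 9 without FBS day 6 A, and 0 and 2 were lower without A2S day 6 A and FBS day 6 B. In the depth window 8 were higher and 1 lower, with library totals 32 and 2.

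Leaving out a component. The 3 comparisons with A2S day 6 share its 2 libraries. Without SGC0946 (A2), 13 members were higher and 2 lower (15.9% and 14.9% of all genes, so the count higher is near the background; median log2 0.13 against -0.01). Without ascorbic acid (S2), 10 were higher and 2 lower (7.61% and 8.13%; median 0.13 against 0). Without 2i (AS), 0 were higher and 54 lower (20% and 19.2%; median -0.33 against -0.02), with 0 higher also at an unadjusted p under 0.05 and 51 lower and 0 higher by DESeq2. The stalk protein Rplp0 stood at 3271 and 3729 CPM in A2S, 4712 and 5026 in A2, and 5086 and 5337 in S2 (adjusted p = 5.7e-05 and 1.4e-05, edgeR quasi-likelihood), and it did not pass in AS (log2 -0.07 ± 0.0848, adjusted p = 0.55).

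In AS, Rps20, a small subunit protein, fell from 4104 and 4585 to 2761 and 2724 CPM (log2 -0.66 ± 0.0907, adjusted p = 6.3e-07, edgeR quasi-likelihood). Rps4l was lower in all 3 media (53.9 and 62.0 CPM in A2S; 33.0 and 35.1 in A2, 35.4 and 31.98 in S2, 37.3 and 34.6 in AS), but in the depth window the call was lost in S2 and AS. Without A2S day 6 B, 29 members were lower in AS, and in the depth window 22 (median -0.24). For A2 the count higher was 5 without A2 day 6 A, 7 without A2 day 6 B, 4 without A2S day 6 A, 7 with listed cells kept, and 6 both in the window and with library totals (41.6% of all calls higher, in place of 51.7%). For S2 it was 2 without A2S day 6 A, without S2 day 6 A or in the window, and 3 with listed cells kept. The 2 members lower in A2 became 1 without A2 day 6 A, A2 day 6 B or A2S day 6 B, and the 2 lower in S2 became 1 without S2 day 6 A and 0 in the window. Whether the drop in AS differs from the A2 and S2 values was not tested.

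Markers of cell types moved with the comparison of AS and A2S. The 10 fibroblast markers summed to 3446 and 3415 CPM in AS day 6 and 1179 and 947 CPM in A2S day 6, with none at 0. The 8 macrophage and blood markers summed to 358 and 313 against 128 and 132 CPM (5 and 4 of them at 0), and the 13 pluripotency markers to 454 and 555 against 1777 and 1837 CPM (1 and 0 at 0). In A2 day 6 the fibroblast markers summed to 3226 and 2961 CPM, the macrophage and blood markers to 122 and 176, and the pluripotency markers to 310 and 312. The part of these cells in the fall of the members was not tested.

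Ribosome biogenesis genes moved with the ribosomal proteins in some comparisons and the opposite way in others, and the difference between the lists was not tested. A list of 51 such genes (RNA polymerase I subunits, nucleolar helicases and processing factors) had 49 members higher in ESCs than in MEFs and 1 lower, with a median of log2 0.98, and 46 higher and 1 lower at A2S day 2, with a median of 0.72, where the ribosomal proteins' median was -0.22 with TMM factors and 0.10 in the depth window. From MEFs to FBS day 3 both lists rose, with 33 biogenesis genes higher and 1 lower (median 0.37) and 26 ribosomal proteins higher. The helicase partner Rrp1b was at 30.2 ± 0.256 CPM in MEFs and 143 ± 1.14 CPM in ESCs, and the pseudouridine synthase Dkc1 at 59.5 ± 1.33 and 237 ± 1.19 CPM. At FBS day 12 the directions were opposite: all 51 were lower than in ESCs (median -1.12) while 50 ribosomal proteins were higher, and 41 fell from FBS day 3 to day 12 with none higher. None was higher at an unadjusted p either, and DESeq2 gave 50 and 34 lower with none higher. Ddx21, a nucleolar helicase, was at 517 CPM in ESCs and 126 CPM at FBS day 12 (log2 -2.04 ± 0.109, adjusted p = 1.0e-16, edgeR quasi-likelihood).

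From A2S day 2 to day 6, 7 biogenesis genes were higher and 19 lower (26.2% and 24.1% of all genes; median -0.17, and -0.04 in the depth window). In A2S day 6 against ESCs 2 were higher and 35 lower (median -0.43). A2S day 6 exceeded FBS day 6 in 42 biogenesis genes with none lower (0 also unadjusted and by DESeq2, which gave 40 higher), among them the polymerase I subunit Polr1b (log2 1.64 ± 0.160, adjusted p = 4.1e-10, edgeR quasi-likelihood), in a comparison where 19 ribosomal proteins were higher. In AS against A2S day 6 both lists fell, with 34 of 51 lower (28 by DESeq2) and none higher by either tool. Markers of dividing cells (10 genes) summed to 1361 and 1546 CPM in MEFs, 2688 and 2536 at A2S day 2, 984 and 1129 at FBS day 12, 2112 and 2115 at A2S day 6, 1641 and 1609 at AS day 6, and 4028 and 4024 in ESCs, with no gene of the list at 0 in these groups. Their part in the results was not tested. In cells of 8000 to 16000 UMIs the biogenesis counts were 48 higher in ESCs against MEFs, 15 higher at FBS day 3, 30 higher at A2S day 2, 47 lower at FBS day 12 against ESCs, 17 lower from FBS day 3 to day 12, and 1 higher and 5 lower from A2S day 2 to day 6.

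Mitochondrial ribosomal proteins, made in the same cytosol but for the separate ribosome of mitochondria, also followed in some comparisons and not in others. Of 77, 38 were higher and 0 lower at FBS day 3 against MEFs (median 0.34; 0 lower also unadjusted and by DESeq2, which gave 30 higher), 29 were higher and 2 lower in ESC A2S against ESC (median 0.24), and 0 were higher and 34 lower in AS against A2S day 6 (median -0.33; 0 higher also unadjusted and by DESeq2, which gave 24 lower), as the cytosolic ones did. In the depth window these counts were 19 higher, 14 higher with 1 lower, and 16 lower, and with library totals the first was 66 and the second 17 with 7 lower. In other comparisons they did not follow. At FBS day 12 against ESC 5 were higher and 38 lower (33.8% and 32.7% of all genes; median -0.37), where the cytosolic median was 0.33. In the depth window 3 were higher and 29 lower there. At A2S day 6 against ESC 16 were higher and 7 lower (median 0.01, cytosolic 0.47). In A2 against A2S day 6, 1 was higher and 11 lower (15.9% and 14.9% of all genes; median -0.09, cytosolic 0.13). At A2S day 2 against MEFs 45 were higher and 5 lower (median 0.38), where the cytosolic median was -0.22 with TMM factors. There both medians were positive in the depth window (0.59, cytosolic 0.10) and with library totals (0.66, cytosolic 0.046). From FBS day 3 to day 12, 43 fell and none rose (median -0.41), the direction opposite to the cytosolic ones. None was higher unadjusted, and DESeq2 gave 32 lower with none higher. From A2S day 2 to day 6, 15 rose and 20 fell (median -0.07), near the background of 26.2% and 24.1% of all genes, so they showed no clear direction. In the depth window the counts of these last 3 comparisons were 28 higher, 23 lower, and 1 higher with 6 lower. Mrpl12 was at 169 CPM in MEFs and 355 CPM at A2S day 2 (log2 1.06 ± 0.102, adjusted p = 2.8e-10, edgeR quasi-likelihood). They took 0.479 ± 0.0153% of UMIs in MEFs, 0.765 ± 0.0251% at A2S day 2 and 0.749 ± 0.0180% at S2 day 6. Among 38 translation factors, 18 rose and 11 fell from A2S day 2 to day 6, the latter near the background of 24.1%, Eef1b2, an exchange factor in elongation, from 1808 to 4025 CPM (adjusted p = 3.9e-12) and Eif5, which acts at start codon choice, from 683 to 330 CPM (adjusted p = 2.0e-10, both edgeR quasi-likelihood). Of 22 genes of mTORC1 and TOP message control, 8 rose and 7 fell in that step, against 26.2% and 24.1% of all genes. Ddit4, an inhibitor of mTORC1, went from 33.2 to 239 CPM (adjusted p = 3.1e-15, edgeR quasi-likelihood).

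**Figure D4:**
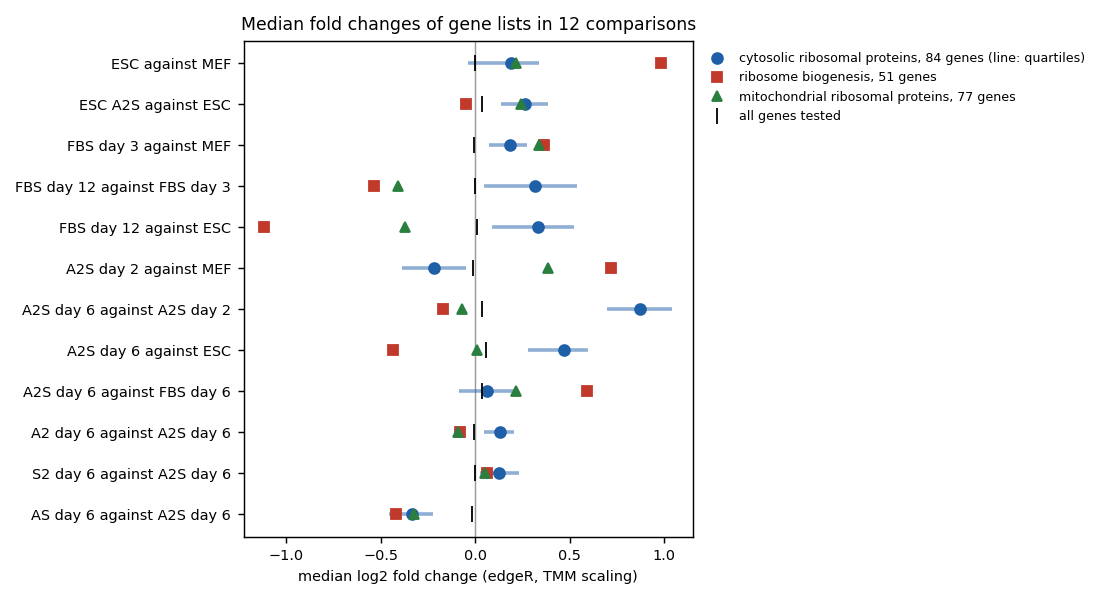
Median log2 fold change of 84 cytosolic ribosomal protein genes (blue circles, with lines for the middle 50%), 51 ribosome biogenesis genes (red squares), 77 mitochondrial ribosomal protein genes (green triangles) and all 13229 genes tested (black ticks) in 12 comparisons. At FBS day 12 against ESC the circles lie at 0.33 and the squares at -1.12, and at A2S day 2 against MEF at -0.22 and 0.72.

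Within day 6 cultures the share also differed between cells that had a Nanog UMI, a marker of pluripotent cells, and cells that had none, though a cell with 0 UMIs may still express the gene. In A2S day 6 Nanog-positive cells had the lower share in both libraries, 14.8% against 15.5% in A (112 and 118 cells) and 15.7% against 17.2% in B (126 and 132 cells). S2 day 6 was alike, with 16.2% against 17.7% in A and 16.1% against 17.0% in B. In AS day 6 the order was the opposite, 14.0% against 12.4% in A (22 and 233 cells) and 14.2% against 12.3% in B (28 and 179 cells). Median depth was 12369 and 12909.5 UMIs in the positive and zero cells of A2S day 6 A, 12478.5 and 9793 in B, and 16865.5 and 12999 in AS day 6 A. In cells of 8000 to 16000 UMIs the directions were the same in all 6 libraries, for example 14.8% against 16.4% in A2S day 6 A and 14.7% against 13.2% in AS day 6 A (11 and 94 cells). For Epcam, another marker of these cells, the order in A2S day 6 over all kept cells was not the same in both libraries. Epcam-positive cells had 15.2% against 14.9% in A and 16.2% against 17.1% in B. In S2 day 6 they had the lower share in both libraries (16.8% against 17.9% and 16.5% against 17.2%) and in AS day 6 the higher (13.3% against 12.3% and 13.5% against 12.2%). In cells of 8000 to 16000 UMIs Epcam-positive cells of A2S day 6 had 15.49% against 15.53% in A (90 and 15 cells) and 16.5% against 17.0% in B. The difference between media was not tested.

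**Figure D5:**
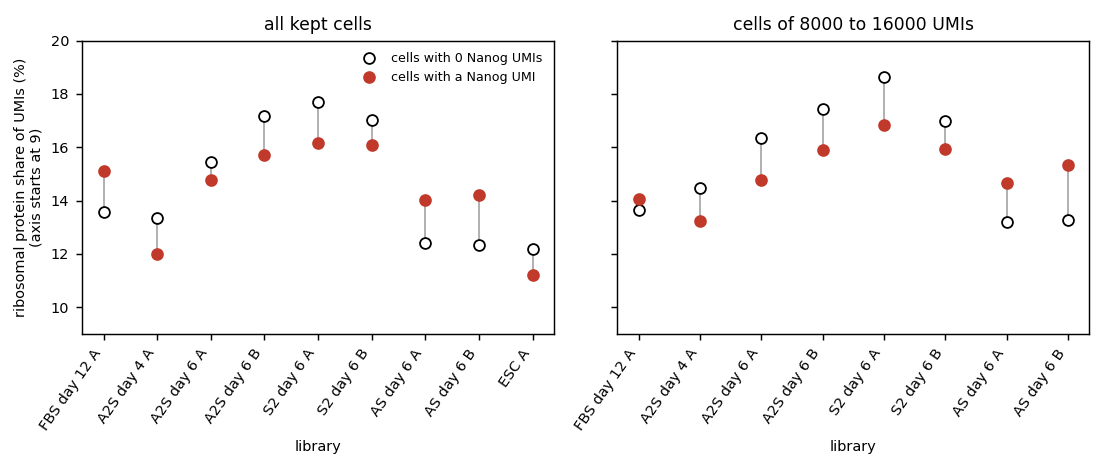
Share of UMIs on the 88 genes (percent) in cells with a Nanog UMI (red) and with 0 Nanog UMIs (open), per library, for libraries with at least 20 cells on each side, over all kept cells (left) and over cells of 8000 to 16000 UMIs (right). Nanog-positive cells lie lower in A2S and S2 day 6 and higher in AS day 6.

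Genes that followed the summed members closely over the 32 libraries included Gnb2l1 and Fau, ribosomal proteins that the name rule misses. Among 4400 other genes at a mean of 50 CPM or more, Pearson's r of log2(CPM + 1) was 0.937 for Gnb2l1, 0.931 for Fau, 0.911 for Cox4i1, a subunit of cytochrome c oxidase, and 0.906 for Eif3k, of the initiation factor eIF3. These are descriptions, since the libraries share groups, depth and scaling. Gnb2l1 was at 2561 ± 56.5 CPM in MEFs, 2361 ± 18.8 in ESCs, 3371 ± 153 at A2S day 6 and 3773 ± 94.5 at S2 day 6.

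The members' promoters (300 bases around the start, RefSeq, both strands) shared letters that the name rule did not use. CCGGAA, the core bound by ETS factors, occurred in 49.3% of 67 member promoters and 15.2% of 27025 promoters. The pyrimidine runs CTTTCC or CTTTTC occurred in 64.2% against 42%, AAGATGGC, as bound by YY1, in 7.46% against 2.88%, and TATAAA in 8.96% against 14.2%. Of the 4 sequences printed above, that before Rpl39l holds CCGGAA and that before Rpl39 holds TATAAA as printed. Those before Rpl10 and Rpl10l match on the opposite strand only. The Rpl10 bases hold TTCCGG, the reverse complement of CCGGAA, and the Rpl10l bases GGAAAG, that of CTTTCC. A match is a description of the letters and no evidence of binding.

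A few members were at or near 0 although most encode subunits that every ribosome holds. Rpl26 and Rps27rt had no UMI, and Rpl30, Rps27 and Rpl34 had 57, 289 and 428 over all libraries. Of the 50-base stretches in the last 300 bases of the transcripts of these 5, 32.7% to 100% also occur in transcripts of other genes, against a median of 21.7% over the 82 members at 10 CPM or more. The other member under 10 CPM, Rpl3l, a copy of Rpl3 known from muscle, had 26 UMIs, and 0% of its stretches occur elsewhere. The aligned transcripts of Rps27 and Rps27rt were 100% identical over 307 bases. How the authors counted reads that match several genes is not given in the sources used here, so levels of single members with near-identical copies, Rpl10, Rpl29 and Rps27 among them, are uncertain.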

How the data were processed

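UMI counts per gene and cell were deposited by the authors for 32 libraries, with a list of feeder barcodes. Per the submitters' processing notes bcl2fastq 2.19, STAR and mm10 were used. The counting program and its annotation: not given in the sources used here. The members, gene lists and comparisons were chosen with earlier results of these data known.

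Listed barcodes were dropped and UMI counts summed per library over the remaining cells. One fit over all 32 libraries (edgeR 4.0.16 and limma 3.58.1 in R 4.3.3; TMM factors 0.843 to 1.068, quasi-likelihood test, Benjamini-Hochberg adjustment over 13229 genes, threshold 0.05) gave 12 comparisons and was tested on simulated data. Levels are CPM over TMM-scaled totals, and log2 levels carry a pseudocount of 1. Share and level tables used Python 3.11.15, numpy 2.4.6, pandas 2.3.3, matplotlib 3.10.9 and biopython 1.88. Sequences came from RefSeq tables (GRCm38.p6), and transcript ends and identities from GENCODE transcripts.

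Named genes are the copy pairs, the single outliers, up to 3 called members each way per comparison with the largest fold change at 50 CPM or more, the 5 members with the most UMIs, Rps19bp1, up to 2 called genes each way per list, and the 5 genes most like the summed members. Some results this rule names are not reported here. Rpl3, named in the closing section, belongs to a copy pair. Replicates of a group differed by a chi-square per degree of freedom of 1.478 to 6.735, and each was kept as a library of its own. Alternatives were DESeq2 1.42.0, RLE factors, scaling without the members, no count filter, keeping the listed cells, a replicate block, a minimum of 1000 UMIs per cell and leaving out each library. The window of 8000 to 16000 UMIs and library totals without TMM factors were added after seeing the data. Doublets were not called.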

Additional observations from a re-analysis of the deposited data

Results flagged for a closer look

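Under A2S, 3 members were called in opposite directions in 2 cell contexts, a difference that was not itself tested. Rps7 was higher by log2 0.42 in ESC A2S against ESC and lower at day 6 of reprogramming against serum (log2 -0.25; adjusted p = 0.00014 and 0.014, edgeR quasi-likelihood). Rpl37rt, a copy of Rpl37, stood at log2 0.43 and -0.45 (adjusted p = 0.0088 and 0.0052), and Rpl32 at log2 0.48 and -0.30 (adjusted p = 4.0e-05 and 0.0052, edgeR quasi-likelihood). All 3 day 6 calls were lost without A2S day 6 A and in cells of 8000 to 16000 UMIs. The Rps7 day 6 call was also lost without FBS day 6 A, with listed cells kept and with library totals, the Rpl37rt one without FBS day 6 B, and the Rpl32 one with library totals. In ESCs the Rpl37rt call was lost without ESC A2S A, without ESC B, in that window, with listed cells kept and with library totals.

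Gene columns named as pseudogenes of ribosomal proteins, which the name rule leaves out, carried UMIs above the MEF libraries. Rpl14-ps1 had a mean of 866 CPM in FBS day 9, against 209.9 and 259 CPM in the MEF libraries, and Rps15a-ps6 195 CPM, against 48.4 and 54.96. Rps19-ps3 had 26.5 CPM in FBS day 9 (4.41 and 5.87 in MEFs) and Rps15a-ps4 21.98 CPM (4.07 and 4.80 in MEFs). Rpl31-ps12 had 5.16 CPM in A2 day 4 (1.19 and 1.60 in MEFs). With TMM factors FBS day 9 was thus the highest group for 4 of these 5 columns, as it was for 41 of the 82 members at 10 CPM or more.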

How the results depend on the processing

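The count of members called changed with scaling, depth, feeder cells and single libraries; the cause was not tested. With library totals in place of TMM factors, the counts higher and lower were 69 and 1 for ESC against MEF, 25 and 2 for ESC A2S against ESC, 62 higher for FBS day 3 against MEF, 18 and 12 for A2S day 2 against MEF, 1 lower for A2S day 6 against A2S day 2, 32 and 2 for A2S day 6 against FBS day 6, and 6 and 4 for A2. In cells of 8000 to 16000 UMIs they were 5 lower for ESC against MEF, 17 higher for ESC A2S, 12 higher for FBS day 3, 3 lower for FBS day 12 against day 3, 2 lower for A2S day 2, 1 lower for A2S day 6 against day 2, 8 and 1 for A2S against FBS day 6, 6 higher for A2, 2 and 0 for S2 and 22 lower for AS. With listed cells kept they were 20 higher for ESC A2S, 10 and 2 for FBS day 3, 7 higher for A2S day 2, 1 lower for A2S day 6 against day 2, 3 lower for A2S against FBS day 6, 7 higher for A2 and 3 higher for S2. Without a count filter 9 were lower for A2S against FBS day 6 and 1 for A2.

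The share over MEF was 2.191 by the median over cells and 1.88 in the depth window for FBS day 9, 1.05 with listed cells and 1.28 in the window for A2S day 2, 2.06 and 2.03 for S2 day 6, and 1.36 in the window for ESC. Single outliers numbered 44 at a threshold of 0.58 and 5 at a level minimum of 50 CPM.

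Signs turned for the members' median of A2S day 2 against MEF (0.10 in the window, 0.046 with library totals) and of A2S day 6 against FBS day 6 (-0.0062 without A2S day 6 B). With library totals Eif1 and Eif6 in ESC against MEF turned to 0.026 and 0.11, and Rpl3 and Rplp0 at A2S day 2 to 0.084 and 0.070. In the window at A2S day 2, Mrpl52 turned to 0.082, Mrps21 to 0.063 and Rpl3 to 0.046.

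Leaving out single libraries gave 24 to 31 higher and 4 to 8 lower for ESC against MEF, 29 to 42 and 1 for ESC A2S, 13 to 24 and 0 to 1 for FBS day 3, 39 to 44 and 3 to 8 for FBS day 12 against day 3, 42 to 49 and 7 against ESC, 4 to 10 and 20 to 36 for A2S day 2, 71 to 74 and 0 to 3 for A2S day 6 against day 2, 54 to 62 and 4 against ESC, 7 to 22 and 0 to 5 against FBS day 6, 4 to 9 and 1 to 2 for A2, 2 to 9 and 1 to 2 for S2, and 0 higher and 29 to 52 lower for AS. A lone library is there assumed to vary like the other groups. Shares over MEF ranged from 2.01 to 2.07 (FBS day 9), 1.06 to 1.11 (A2S day 2), 1.88 to 2.04 (A2S day 6), 2.09 to 2.15 (S2 day 6) and 1.40 to 1.43 (ESC).

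The letters A and B did not pair libraries across groups: deviations correlated at -0.101 to 0.0825 over 120 pairs of groups. With a replicate block ESC against MEF gave 35 higher and 8 lower, and no count of members moved by over 1.5 times. With 2 libraries a group, and 1727490 UMIs in the shallowest, small differences of single members are not resolved.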
